A study of Mus musculus with 5 samples.

Results

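Wnt signalling was read here through its ligands, receptors, antagonists, intracellular relay and feedback genes in CD31-positive cells of infarcted mouse hearts. Members were taken by symbol. They are the rows that begin with Wnt, Fzd, Sfrp, Dkk, Rspo or Dvl followed by a digit, and 22 further pathway genes, 2 of which (Rnf43 and Lgr5) were not analysed here. This gave 49 of 17638 genes, and 42 of them reached the mean normalised read count of 10 that was needed for testing. A normalised read count is the number of reads of a gene scaled by the size factor of the library.

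Polyadenylated RNA was sequenced in 5 libraries, all made 5 days after myocardial infarction from 2 month old mice on a C57BL/6 background. The control group had 3 libraries and the Tbx1cko group, a conditional deletion of the T-box transcription factor gene Tbx1 that the series describes as endothelial, had 2. The alleles, the recombinase driver and any treatment of the controls were not given in the sources used here, nor whether each library came from a separate animal, so the p-values below reflect no more than how far these libraries spread. CD31, encoded by Pecam1, marks endothelial cells and is also carried by platelets and some leukocytes.

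In the canonical branch, a lipid-modified Wnt protein, released with the help of Porcn and Wls, binds a Frizzled receptor together with Lrp5 or Lrp6. Dishevelled then halts the destruction complex of Axin, Apc and Gsk3b, and beta-catenin (Ctnnb1) enters the nucleus to act with Tcf and Lef factors. In vessels, Fzd4 with Lrp5 is best known as the receptor of norrin, which drives retinal vessel growth and barrier formation.

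The libraries held 14689782 to 18617284 reads. Tbx1 had 64.4, 72.7 and 69.6 normalised reads in control libraries 1, 2 and 3 against 18.3 and 17.3 in Tbx1cko libraries 1 and 2, a log2 difference of -1.89 (SE 0.297; adjusted p = 0.762 with limma and 0.0349 with DESeq2), and goes with the labels. The endothelial markers were abundant: Pecam1 had 33714.9 to 43313.2 normalised reads and Cdh5 45379.2 to 62849.1 over the 5 libraries. The macrophage gene Lyz2, at 29681.5 to 53427.8, the fibroblast gene Col1a1, at 4303.2 to 9929.8, and the pericyte gene Rgs5, at 8733.6 to 35181.7, were abundant too. No member of these marker lists was at 0 except Ccr2 in 1 library, and in such bulk samples fewer cells of a type and less RNA per cell cannot be told apart. Control replicate 2 stood apart, with correlations across genes of 0.859 to 0.889 with the other libraries, against 0.98 to 0.988 among those 4. Its value lay outside the range of the other 4 libraries for 34 of the 42 Wnt pathway genes tested (23 above, 11 below) and for 82.6% of all genes tested. The main results are therefore given with and without this library.

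With limma on log2(normalised count + 1), 0 of the 42 genes passed an adjusted p of 0.05, where 0.0% of the 14339 genes tested passed, and edgeR and DESeq2 on recovered reads also passed 0 of the 42. The added 1 makes differences of genes with few reads look smaller than they are. At an unadjusted p under 0.05 there were 3 genes lower in Tbx1cko (Wnt11, Ror2 and Apcdd1) and 0 higher, where 1.37% and 0.37% of all genes tested were lower and higher. The groups did not overlap for 12 genes lower in Tbx1cko, where the share over all genes was 13.9%, and for 2 higher, where it was 14.2%. The 2 higher genes were Fzd4 and Lef1. The 12 lower genes were the ligands Wnt11, Wnt9b, Wnt9a and Wnt2, the receptors Lrp5, Fzd6, Fzd7 and Ror2, and Apcdd1, Dvl1, Dvl3 and Tcf7l1. The median log2 difference (Tbx1cko minus control) of the 42 genes was -0.35, beside 0.03 over all genes tested. It was -0.18 without control replicate 2 and -0.12 without Tbx1cko replicate 1.

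Without control replicate 2, limma again called 0 of the 42, where 0.0209% of all genes passed, and the lowest adjusted p among them was 0.422. At an unadjusted p under 0.05 the same 3 genes were lower and Fzd4 was higher, where 4.07% and 3.39% of all genes were lower and higher. The same 12 genes were lower without overlap, where 17.8% of all genes were, and 4 were higher (Fzd4, Lef1, Axin1 and Tcf7), where 19.7% were. DESeq2 on the recovered whole reads called 0 members with all libraries, where 0.0279% of genes passed. Without control replicate 2 it also called 0, where 0.544% passed, and gave no adjusted p for 23 of the 42. Wnt11, Ror2 and Apcdd1 were among these 23, so DESeq2 could not call them there. Of all 49 genes, tested or not, 34 had a negative and 15 a positive log2 difference. The 7 genes not tested (Wnt2b, Wnt6, Wnt16, Fzd9, Rspo1, Rspo3 and Sfrp5) had 0.0 to 15.6 normalised reads in any library. Wnt6 and Sfrp5 had 0 reads in control replicate 1, and Wnt16 and Sfrp5 had 0 in Tbx1cko replicate 2, a count that allows up to 3 reads.

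**Figure D1:**
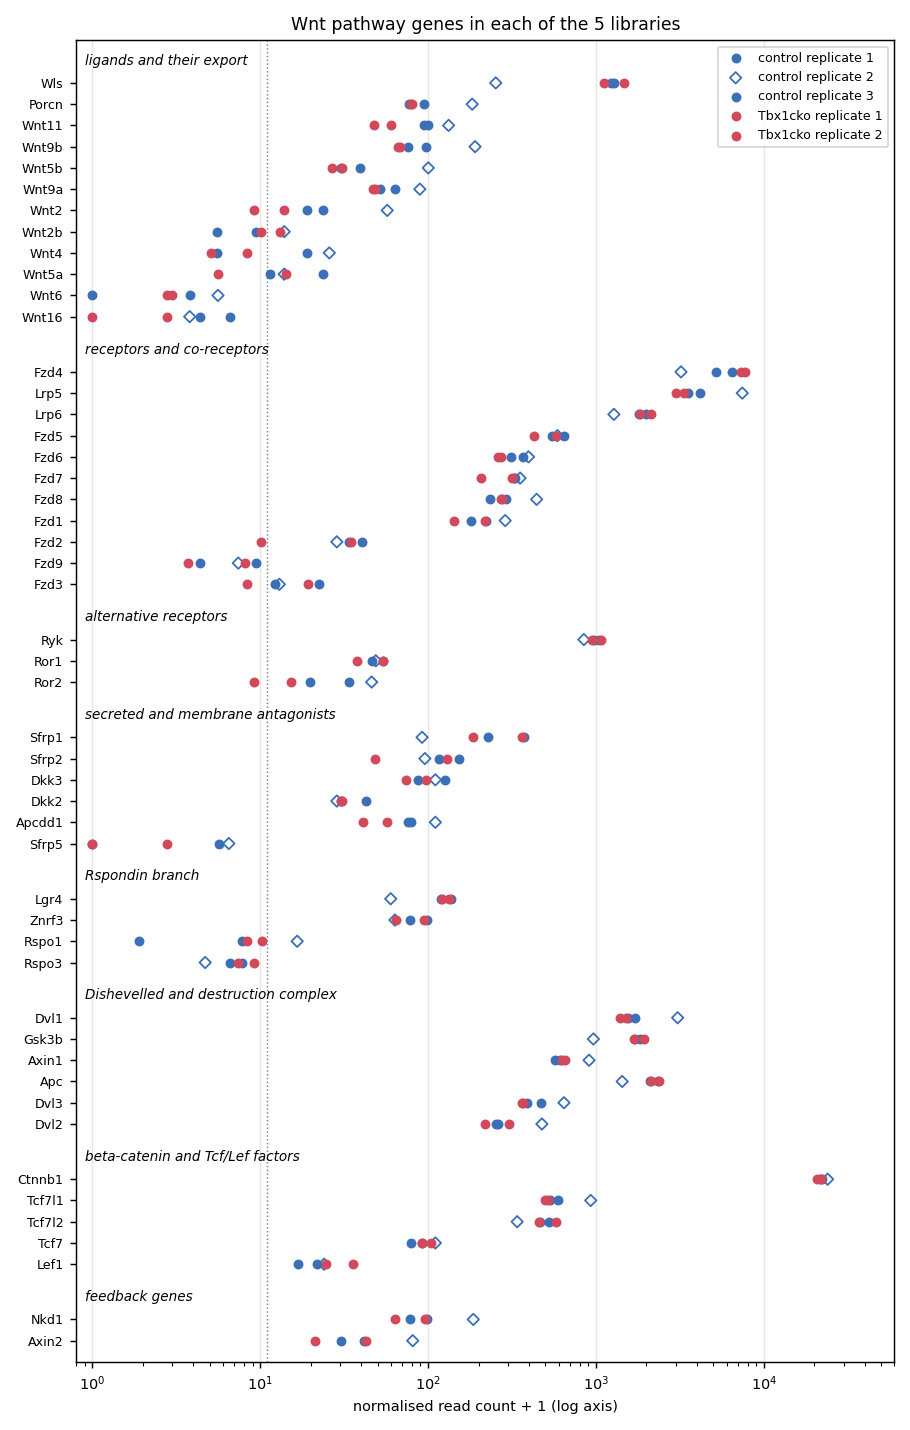
Normalised read count plus 1 (log axis) of the 49 Wnt pathway genes in the 5 libraries, grouped by role and ordered within a role by level per kilobase. Each point is 1 library, the open diamond is control replicate 2, and the dotted line marks a normalised count of 10; Ctnnb1 lies far to the right, at 20827.8 to 23993.4, while the ligands lie between 0 and 189.5.

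Of the genes that had an unadjusted p under 0.05 in either fit, Fzd4, Wnt11 and Ror2 have an entry in the RefSeq promoter table (GRCm38.p6). The 250 bases before their start sites are shown, 5′ to 3′ on the strand of the gene, because the results below turn on these members. Capitals mark a match to the Tcf/Lef core motif, searched as CTTTGAA or CTTTGAT or CTTTGTA or CTTTGTT on both strands, or to the T-box half-site GGTGTGA on both strands. No capitals means that these letters are not in the window. Fzd4 lies at chr7:89404116-89404365 (plus strand), Wnt11, upstream of its first start site, at chr7:98834862-98835111 (plus strand) and Ror2 at chr13:53286125-53286374 (minus strand).
Fzd4: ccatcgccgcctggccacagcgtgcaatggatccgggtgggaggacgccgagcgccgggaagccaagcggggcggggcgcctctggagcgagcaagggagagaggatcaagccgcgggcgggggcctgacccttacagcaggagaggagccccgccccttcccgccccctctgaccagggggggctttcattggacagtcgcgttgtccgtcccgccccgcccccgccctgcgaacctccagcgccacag
Wnt11: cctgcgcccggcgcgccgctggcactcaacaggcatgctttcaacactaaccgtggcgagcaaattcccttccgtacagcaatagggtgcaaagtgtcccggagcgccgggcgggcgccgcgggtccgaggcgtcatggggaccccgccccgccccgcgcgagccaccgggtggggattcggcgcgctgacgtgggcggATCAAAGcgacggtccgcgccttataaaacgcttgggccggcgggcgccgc
Ror2: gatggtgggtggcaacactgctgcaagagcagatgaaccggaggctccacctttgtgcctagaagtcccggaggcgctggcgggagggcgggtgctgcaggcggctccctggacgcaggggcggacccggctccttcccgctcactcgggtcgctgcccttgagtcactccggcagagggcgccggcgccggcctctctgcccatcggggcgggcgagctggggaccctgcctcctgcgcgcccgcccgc

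In the Wnt11 window the Tcf/Lef core appears as ATCAAAG, the reverse complement of CTTTGAT, beginning 51 bases before the start site. The table held 43 windows for 34 of the 49 genes. A Tcf/Lef core was in 5 of them (11.6%), 1 each of Wnt11, Fzd7, Lef1, Tcf7l2 and Wnt5b, where 10.5% of the windows of genes tested and 14.8% of all 32851 windows held it. The T-box half-site was in 0 of the 43, where 2.85% of the windows of genes tested held it. The Tcf/Lef share was near the background. The windows of the Wnt pathway genes were rich in GC, with a median of 66.4%, beside 59.6% for the genes tested.

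The ligands were few and low. Per kilobase of the longest transcript, a scale on which genes can be compared, the mean level over the 5 libraries was 24.9 normalised reads for Wnt11, 21.8 for Wnt9b, 18.7 for Wnt5b, 17.8 for Wnt9a and 10.4 for Wnt2. The other 5 ligands had 0.829 to 2.85. Each of the first 5 differed from the next by less than its range over the libraries. Summed over the 10 ligands, the normalised counts came to 332, 623 and 332 for the controls against 222 and 242 in Tbx1cko libraries 1 and 2. Both Tbx1cko sums were below all 3 control sums, and control replicate 2 had the highest sum by far.

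Wnt11, a ligand of the non-canonical branch that acts in heart development, had 99.4, 131.5 and 93.2 normalised reads in control libraries 1, 2 and 3 against 46.6 and 59.1 in Tbx1cko libraries 1 and 2. All controls were above both Tbx1cko libraries, and control replicates 1 and 3 were close to each other. Controls averaged 108 ± 20.6 (SD, n = 3) and Tbx1cko libraries 52.9 ± 8.81 (SD, n = 2). The log2 difference was -1.01 (SE 0.303), or 2.01-fold lower on this scale, with an unadjusted limma p of 0.0182 and an adjusted p of 0.762. It was -0.86 without control replicate 2 (limma adjusted p = 0.422). Over the 18 alternative settings it ranged from -1.18 to -0.73. The gene (ENSMUSG00000015957.12) spans 98835112 to 98855195 of chromosome 7 in GRCm38, on the plus strand. It shares 364 exon bases with the antisense gene Gm8398, and the strand setting of the counting is not given in the sources used here. Exon bases are shared with another gene by 12 of the 49 genes, among them also Axin2, Sfrp2, Fzd5, Fzd6, Ctnnb1, Tcf7l1, Dvl1 and Wnt5a, and reads of such pairs may be mixed.

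Wnt2, a canonical ligand that endothelial cells of liver and lung are known to make, had 22.6, 56.1 and 17.9 normalised reads in the control libraries against 12.8 and 8.2 in Tbx1cko. The groups did not overlap, but the high control mean rests on control replicate 2. The log2 difference was -1.39 (SE 0.608, limma adjusted p = 0.762), and -0.91 without that library. Wnt9b, which endocardial cells use during valve growth, had 74.6, 189.5 and 96.0 in the controls against 64.9 and 67.3 in Tbx1cko. The log2 difference, -0.74 (SE 0.453, limma adjusted p = 0.762), became -0.35 without control replicate 2. Wnt9a, the closest relative of Wnt9b, had 62.1, 88.3 and 50.8 in the controls against 47.6 and 45.9 in Tbx1cko, so its lowest control was only just above the Tbx1cko values.

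Wnt5a and Wnt5b, ligands of the non-canonical branch, overlapped between the groups. Wnt5b had 38.4, 99.3 and 29.2 in the controls against 25.6 and 29.6 in Tbx1cko. Wnt5a had 22.6, 12.9 and 10.4 in the controls against 4.6 and 13.2 in Tbx1cko, and Wnt4 had 4.5, 24.8 and 17.9 against 7.3 and 4.1. Wnt4 and Wnt5a were the only genes tested with a group mean under 10, so they were tested on account of the controls. The endocardial marker list, fixed with 6 genes, had 6 of 6 members lower in Tbx1cko, 0 of them called by limma (0 lower at an unadjusted p under 0.05, where 1.37% of all genes were, and 3 without control replicate 2, where 4.07% were), and summed to 11284 to 15578 normalised reads in the control libraries against 8792 to 9399 in Tbx1cko. Its part in the ligand values was not tested.

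Of the genes of ligand export, Wls, the carrier that takes Wnt proteins to the cell surface, had 1230.5, 252.0 and 1278.7 normalised reads in the control libraries against 1118.6 and 1471.5 in Tbx1cko. Control replicate 2 alone was low, at -2.31 on the log2 scale relative to the other controls. The log2 difference of 0.80 (SE 0.767, limma adjusted p = 0.762) therefore shrank to 0.03 without that library. Porcn, the enzyme that attaches the lipid, had 75.7, 182.1 and 93.2 against 79.6 and 78.5, and its log2 difference went from -0.46 to -0.09.

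Among the receptors, Fzd4 and Lrp5 stood far above the rest in level per kilobase, with 892 and 835 normalised reads per kilobase over the 5 libraries. Lrp6 had 193, Fzd5, Fzd6, Fzd7, Fzd8 and Fzd1 had 49.8 to 80.5, and Fzd2, Fzd9 and Fzd3 had 7.79, 2.46 and 1.11. Fzd4 and Lrp5 differed from each other by less than their range over the libraries, and so did each neighbour in the order Fzd5, Fzd6, Fzd7, Fzd8 and Fzd1.

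Fzd4 had 5207.7, 3211.1 and 6449.2 normalised reads in control libraries 1, 2 and 3 against 7332.4 and 7766.3 in Tbx1cko libraries 1 and 2. Both Tbx1cko libraries were above every control, and control replicate 2 was the lowest. Controls averaged 4956 ± 1634 (SD, n = 3) and Tbx1cko libraries 7549 ± 307 (SD, n = 2). The log2 difference was 0.66 (SE 0.325), or 1.58-fold higher, with a limma adjusted p of 0.762. Without control replicate 2 the log2 difference was 0.38 (SE 0.137), with an unadjusted limma p of 0.0177, a limma adjusted p of 0.541 and a DESeq2 adjusted p of 0.393. It was positive under all 18 alternatives, from 0.36 to 0.88. The gene (ENSMUSG00000049791.4) spans 89404355 to 89413134 of chromosome 7 in GRCm38, on the plus strand. Some marker lists of other cells and states had the same sign as Fzd4. Neutrophil markers had a positive log2 difference in 6 of 6 (median 1.91, or 1.26 without control replicate 2). Their sums were 591 to 958 normalised reads in the controls against 1363 and 1328 in Tbx1cko. Cell division genes were positive in 10 of 10 (median 0.79, or 0.35 without that library). Their sums were 1747 to 7240 against 8155 and 6850. Macrophage and monocyte markers were positive in 10 of 11 (median 0.43), or 7 of 11 without control replicate 2 (median 0.16). Their sums overlapped, at 57807 to 95298 in the controls against 92730 and 95753 in Tbx1cko. Platelet markers were positive in 4 of 6 (median 0.17), or 5 of 6 without control replicate 2 (median 0.26). The platelet sums were 2273 to 3934 in the controls against 5233 and 4665 in Tbx1cko. Without control replicate 2, DESeq2 called 1 platelet gene higher, where 0.544% of all genes passed in either direction. Endothelial markers went the other way, negative in 8 of 10 (median -0.17). Limma called 0 members of these lists. At an unadjusted p under 0.05, 1 neutrophil, 2 platelet, 0 cell division and 0 macrophage and monocyte genes were higher, where 0.37% of all genes were. Without control replicate 2 these counts were 5 of 6, 2 of 6, 1 of 10 and 2 of 11, where 3.39% of all genes were higher. The part of these lists in the Fzd4 values was not tested. Of the summed Frizzled level per kilobase, Fzd4 made up 68.9%, 53.9% and 74.2% in the controls and 81.2% and 78.0% in Tbx1cko.

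The other Frizzled genes went the other way in sign. Fzd6, which acts in planar cell polarity, had 309.6, 395.5 and 368.8 normalised reads in the control libraries against 261.6 and 272.1 in Tbx1cko, a log2 difference of -0.42 and -0.34 without control replicate 2. Fzd7, a receptor of both branches, had 322.0, 352.3 and 327.4 against 206.7 and 314.9, so 1 Tbx1cko library was near the controls. Fzd5, Fzd8, Fzd1, Fzd2 and Fzd3 overlapped between the groups, with log2 differences of -0.86 to -0.19. Fzd8 turned to 0.07 without control replicate 2. Fzd2 was 9.1 in Tbx1cko replicate 1 and 27.6 to 39.5 in the other 4 libraries.

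Lrp5, the co-receptor that works with Fzd4 in retinal vessels, had 4185.1, 7444.1 and 3547.3 normalised reads in the control libraries against 3007.2 and 3352.7 in Tbx1cko. Controls averaged 5059 ± 2090 (SD, n = 3) and Tbx1cko libraries 3180 ± 244 (SD, n = 2), and the lowest control was only slightly above the higher Tbx1cko library. The log2 difference of -0.60 (SE 0.351, limma adjusted p = 0.762) was -0.28 without control replicate 2 (limma adjusted p = 0.682). After a correction for GC content without that library it was -0.15. Lrp6 had 1990.9, 1278.5 and 1804.7 against 1819.2 and 2140.0, a log2 difference of 0.25, or 0.06 without control replicate 2 and -0.06 after GC correction. Lrp6 made up 20.8%, 8.64% and 21.9% of the summed Lrp5 and Lrp6 level per kilobase in the controls and 25.0% and 26.0% in Tbx1cko.

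**Figure D2:**
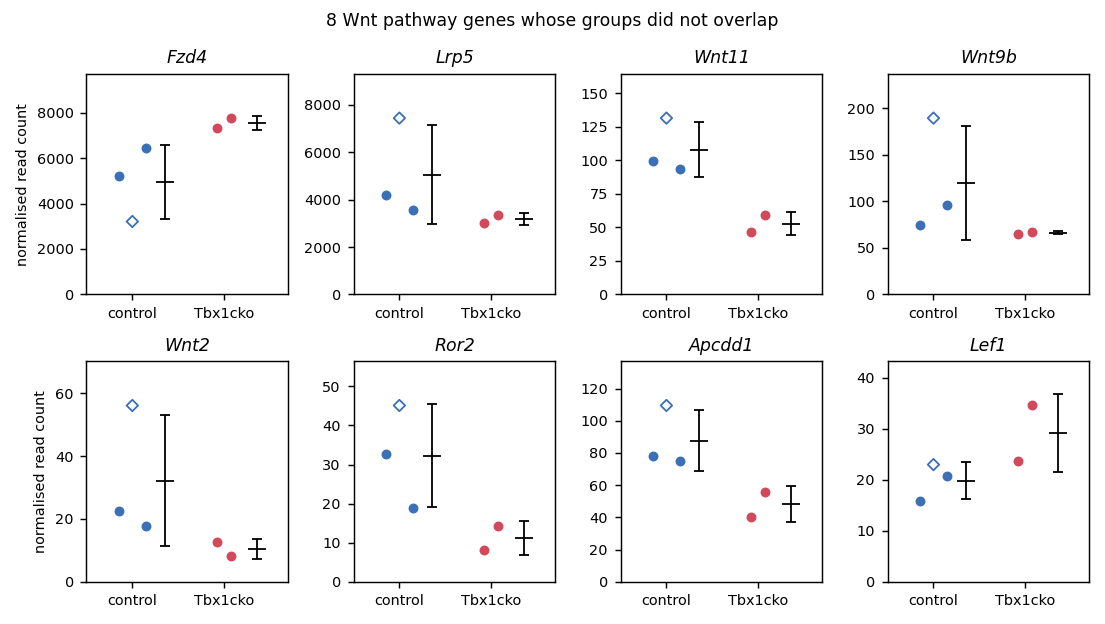
Normalised read counts of 8 Wnt pathway genes in control and Tbx1cko libraries, 1 point per library (open diamond: control replicate 2), with the mean and SD of each group beside the points and each axis starting at 0. The groups do not overlap in any panel; Fzd4 and Lef1 are higher and the other 6 lower in Tbx1cko, and control replicate 2 is the highest library for each of those 6.

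The receptors of the non-canonical branch are Ror1, Ror2 and Ryk. Ror2, a tyrosine kinase-like receptor of Wnt5a, had 32.8, 45.1 and 18.8 normalised reads in the control libraries against 8.2 and 14.3 in Tbx1cko. Every control was above both Tbx1cko libraries, at counts low enough that a few reads matter. Controls averaged 32.2 ± 13.1 (SD, n = 3) and Tbx1cko libraries 11.3 ± 4.27 (SD, n = 2), and the log2 difference was -1.40 (SE 0.527), or 2.64-fold lower. The unadjusted limma p was 0.0411 and the adjusted p 0.762. Without control replicate 2 the log2 difference was -1.12 (limma adjusted p = 0.646), and over 17 alternatives it ranged from -1.76 to -0.99. Ror2 (ENSMUSG00000021464.14) spans 53109312 to 53286124 of chromosome 13 in GRCm38, on the minus strand.

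Ror1 had 45.2, 47.8 and 52.7 in the controls against 53.0 and 36.7 in Tbx1cko. Ryk had 1048.5, 846.2 and 974.8 against 1066.4 and 944.7. Both overlapped between the groups, with log2 differences of -0.13 and 0.08. Ryk stood at 342 normalised reads per kilobase over the 5 libraries, far above Ror1 at 8.17 and Ror2 at 5.98. Markers of pericytes and smooth muscle moved in the same direction as Ror2, with 11 of 12 list members lower in Tbx1cko. Limma called 0 of 12 in either fit. At an unadjusted p under 0.05, 8 were lower, where 1.37% of all genes were. Without control replicate 2, 11 were lower, where 4.07% of all genes were. The median log2 difference was -0.91, or -0.66 without control replicate 2. Without that library DESeq2 called 6 of the list lower and 0.544% of all genes in either direction. The list summed to 50259 to 61670 normalised reads in the control libraries against 40409 to 42268 in Tbx1cko, and its part in the Ror2 values was not tested. Lymphatic endothelial markers were negative in 8 of 8, with a median of -0.48, or -0.75 without control replicate 2. Limma called 0 of these in either fit. With all libraries 3 of 8 were lower at an unadjusted p under 0.05, where 1.37% of all genes were. Without control replicate 2 it was 6 of 8, where 4.07% of all genes were. DESeq2 without that library called 5 lower, and 0.544% of all genes in either direction. The lymphatic list summed to 11446 to 14892 in the controls against 9716 and 8299 in Tbx1cko, and its part in the values of the Wnt pathway genes was not tested.

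The antagonists were led by the secreted Frizzled-related proteins, which bind Wnt outside the cell. Sfrp1 had 369.5, 91.1 and 225.8 normalised reads in the control libraries against 184.8 and 361.8 in Tbx1cko. Sfrp2 had 151.4, 94.7 and 115.7 against 47.6 and 129.4. Both genes differed more within a group than between the groups. Their log2 differences were 0.39 and -0.59, and without control replicate 2 they were -0.16 and -0.75. Fibroblast markers were also uneven: the list of 10 summed to 38436, 21822 and 26256 in the controls and to 19860 and 40459 in Tbx1cko. Tbx1cko replicate 1 was the lowest library for this list and for Sfrp2, and control replicate 2 the lowest for Sfrp1. Whether fibroblast RNA set these values was not tested.

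Apcdd1, a membrane inhibitor that binds Wnt and Lrp5 and is itself induced by the pathway, had 78.0, 109.5 and 75.3 normalised reads in the control libraries against 40.2 and 56.0 in Tbx1cko. All 3 controls were above both Tbx1cko libraries. Controls averaged 87.6 ± 19.0 (SD, n = 3) and Tbx1cko libraries 48.2 ± 11.2 (SD, n = 2), a log2 difference of -0.85 (SE 0.332) with an unadjusted limma p of 0.0472 and an adjusted p of 0.762. It was -0.68 without control replicate 2 (limma adjusted p = 0.636) and -0.98 after GC correction with all libraries. Over 18 alternatives it ranged from -1.08 to -0.61. Dkk3 had 85.6 to 125.4 in the controls against 73.2 to 95.8 in Tbx1cko, and Dkk2, which blocks the Lrp co-receptors, 27.6 to 41.4 and 29.3 to 29.6, both with overlap.

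In the Rspondin branch, secreted Rspondins bind Lgr receptors and remove the ubiquitin ligase Znrf3, which otherwise clears Frizzled from the surface. The ligands Rspo1 and Rspo3 had 0.9 to 15.6 normalised reads in any library and were not tested. Lgr4 had 118.6, 58.9 and 136.4 in the controls against 120.7 and 132.5 in Tbx1cko. Control replicate 2 was the only low library, and the log2 difference of 0.36 was -0.01 without it. Znrf3 had 97.2, 62.5 and 77.2 against 63.1 and 93.8, a log2 difference of -0.01.

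The intracellular relay was abundant. Dvl1, the main Dishevelled gene by level per kilobase, had 1711.8, 3066.7 and 1556.3 normalised reads in the control libraries against 1382.0 and 1508.2 in Tbx1cko. The log2 difference, -0.48 (SE 0.339, limma adjusted p = 0.762), was -0.18 without control replicate 2 and 0.00 when GC was corrected as well. Dvl3 had 467.8, 643.9 and 387.7 against 360.4 and 366.9, again with the groups apart by little. Dvl2 overlapped, and shares 1151 exon bases with Acadvl, a gene on the opposite strand with a mean of 723.6 normalised reads. Apc, the scaffold of the destruction complex, had 2091.4, 1432.2 and 2337.3 in the controls against 2132.9 and 2369.3 in Tbx1cko. Its log2 difference of 0.23 was 0.02 without control replicate 2. The kinase gene Gsk3b and the scaffold gene Axin1 had log2 differences of 0.32 and -0.09, which became 0.03 and 0.11.

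Beta-catenin itself was even across libraries. Ctnnb1, which also serves endothelial junctions, had 22074.8, 23993.4 and 21657.6 normalised reads in the control libraries against 21910.4 and 20827.8 in Tbx1cko, which is -0.08 as a log2 difference (SE 0.153, limma adjusted p = 0.836). Tcf7l1, mostly a repressor among the Tcf factors, had 592.1, 929.9 and 527.9 against 498.5 and 516.7. Its log2 difference of -0.38 was -0.14 without control replicate 2. Tcf7l2 and Tcf7 overlapped between the groups.

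Lef1, an activating partner of beta-catenin and a target of the pathway, had 15.8, 23.0 and 20.7 normalised reads in the control libraries against 23.8 and 34.6 in Tbx1cko. The lower Tbx1cko library was barely above the highest control. The log2 difference was 0.53 (SE 0.395, limma adjusted p = 0.762), 0.64 without control replicate 2 and 0.27 without Tbx1cko replicate 2. Lef1 shares 1208 exon bases with the antisense gene Gm43352.

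The feedback genes Axin2 and Nkd1, which damp the pathway and are widely used as its readout, did not separate the groups. Axin2 had 29.4, 80 and 40.5 normalised reads in the control libraries against 20.1 and 41.8 in Tbx1cko. Nkd1 had 97.2, 184.9 and 77.2 against 95.1 and 62.2. Control replicate 2 was the highest library for both, and their log2 differences of -0.64 and -0.53 were -0.24 and -0.17 without it. The 4 genes described so far as induced by the pathway, as its targets or as its feedback genes did not share a sign. Apcdd1, Axin2 and Nkd1 had negative log2 differences, and Lef1, at 15.8 to 34.6 normalised reads, a positive one. A wider list of target genes is given below.

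**Figure D3:**
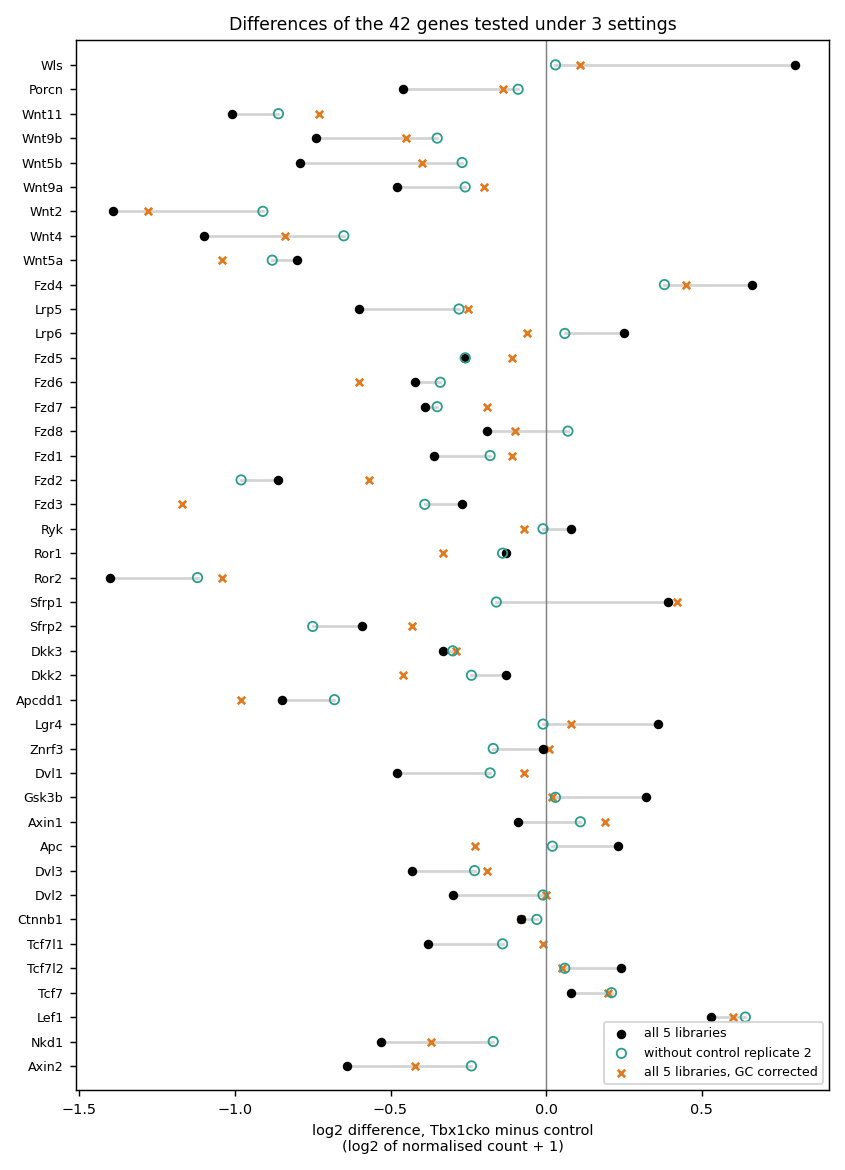
Log2 differences (Tbx1cko minus control, log2 of normalised count + 1) of the 42 Wnt pathway genes tested, with all 5 libraries (black), without control replicate 2 (green circles) and with all libraries after GC correction (orange crosses). The grey bars show how far leaving out control replicate 2 moves each value, and Wls goes from 0.80 to 0.03. Wnt11, Ror2, Apcdd1 and Wnt2 stay below -0.6 in all 3 settings, which share the same Tbx1cko libraries. So do Wnt4 and Wnt5a, but these were tested only on account of their controls, which favours a negative value.

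Control replicate 2 and GC content moved together in these genes as in the rest. Its deviation from the mean of the other 2 controls ran from -2.31 (Wls, with a GC content of 42.0%) to 1.54 (Wnt5b, 60.0%) on the log2 scale. Across the 42 genes the deviation had a Pearson r of 0.728 and a Spearman rho of 0.758 with the GC content of the transcript, beside 0.74 and 0.808 over all 13771 genes tested with a GC value. These describe genes that share the same libraries. The log2 differences of the 42 genes had a rho of -0.617 with GC content with all libraries and -0.296 without control replicate 2. The median GC content was 52.2% for the 42 genes and 50.1% over all genes. After GC correction the median log2 difference of the 42 was -0.19 with all libraries and -0.15 without control replicate 2, beside 0.00 and 0.02 over all genes.

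**Figure D4:**
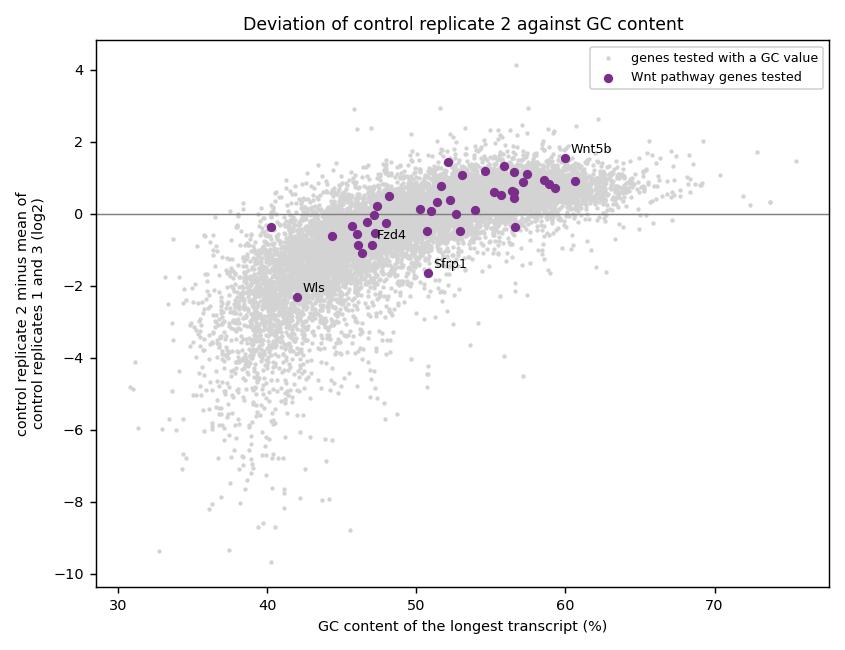
Log2 deviation of control replicate 2 from the mean of control replicates 1 and 3, plotted against the GC content (%) of each gene's longest transcript, for genes tested (grey) and the 42 Wnt pathway genes tested (purple). Genes rich in GC lie above 0 and genes poor in GC below; Wls, at 42.0% GC, is at -2.31.

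Other genes of the pathway, in lists chosen by function, included none that passed: limma called 0 members of any of the 6 lists, with or without control replicate 2. With all libraries, Celsr1 and Fosl1 were the only list members at an unadjusted p under 0.05, both lower. Each was 1 of 22 tested in its list, where 1.37% of all genes tested were lower. Without control replicate 2, the counts lower were 3 of 18 nuclear cofactors, 2 of 22 planar cell polarity and calcium genes and 5 of 22 target genes. The share over all genes was then 4.07%. The other lists had 0 lower, and 0 list members were higher. Among extracellular inhibitors outside the families, 6 of 7 tested were lower, with a median log2 difference of -0.36. Without control replicate 2 it was 7 of 7, with a median of -0.27. Sost, an Lrp antagonist, had 19.2, 70.8 and 25.4 normalised reads in the control libraries against 11.9 and 17.3 in Tbx1cko. Igfbp4, which can also hold back Wnt, had 3949.0, 5788.4 and 4465.7 against 3847.8 and 3429.2. Regulators of the destruction complex had 13 of 19 lower (median -0.24), or 14 of 19 without control replicate 2 (median -0.07). Among them, Apc2 had 45.2, 91.1 and 24.5 against 17.4 and 20.4. Csnk1d, a casein kinase 1 gene, had 3306.5 to 4214.6 in the controls against 2722.8 and 2988.9 in Tbx1cko.

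Nuclear cofactors of beta-catenin had 15 of 18 lower (median -0.23, and -0.13 without control replicate 2). Bcl9l, a co-activator, had 854.2, 1457.9 and 700.1 normalised reads in the control libraries against 517.7 and 600.2 in Tbx1cko, a log2 difference of -0.78, or -0.47 without control replicate 2 (limma adjusted p = 0.45). Sox7, an endothelial factor that can bind beta-catenin, had 5915.0, 5860.1 and 5455.6 against 3519.4 and 4752.9, a log2 difference of -0.49 and -0.47 without that library (limma adjusted p = 0.445). Sox7 was among the few of these genes in which control replicate 2 did not stand out.

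In the planar cell polarity and calcium branch 15 of 22 were lower (median -0.13), or 12 of 22 without control replicate 2 (median -0.03). Celsr1, a cadherin of planar polarity, had 97.2, 181.2 and 127.0 normalised reads in the control libraries against 50.3 and 69.3 in Tbx1cko, with a log2 difference of -1.13 and -0.90 without control replicate 2 (limma adjusted p = 0.412). Nfatc1, also counted among the endocardial markers, had 1740.7 to 2203.9 against 1204.5 and 1526.6. The norrin and Reck co-receptor branch had 3 of 4 tested lower (median -0.36), or 4 of 4 without control replicate 2 (median -0.14). Adgra2, which works with Reck to pass on signals of Wnt7 ligands, had 2239.5, 3789.6 and 2639.3 against 2157.6 and 2294.9, and Lgr6 had 16.0 to 20.3 against 11.9 and 9.2.

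Of the list of beta-catenin target genes, 18 of 22 tested were lower, with a median log2 difference of -0.41 and -0.34 without control replicate 2. Fosl1 had 531.1, 820.5 and 523.2 normalised reads in the control libraries against 327.4 and 361.8 in Tbx1cko. Sox9 had 74.6, 49.7 and 62.1 against 29.3 and 40.8, and here control replicate 2 was the lowest control. Fosl1 belongs to the AP-1 family, and immediate early and dissociation stress genes were lower as well, with 13 of 13 list members below the controls in mean, 0 called by limma (4 lower at an unadjusted p under 0.05, where 1.37% of all genes were), and sums of 275234 to 548538 normalised reads in the control libraries against 212869 to 246325 in Tbx1cko. Without control replicate 2, 9 of the 13 were lower at an unadjusted p under 0.05, where 4.07% of all genes were, and DESeq2 called 3 lower, where it called 0.544% of all genes. Their part in the target gene values was not tested.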

How the data were processed

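Per the labels' protocols, TRIzol LS was used for RNA and a TruSeq kit for libraries. The submitters' processing notes name STAR 2.5.2b, DESeq, DESeq2 1.20.0 and R 3.5.1, with GRCm38 or mm10 as the build. Which counter, annotation and strand setting were used is not given in the sources used here. The deposited signal is a normalised read count, the reads of a gene scaled by its library's size factor. All values (100%) were whole multiples of the smallest value of their library, within 0.01, so whole reads were recovered.

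Groups and replicate numbers came from the titles. limma 3.58.1 (R 4.3.3) with a trended prior was fitted to log2(normalised count + 1) for the 14339 genes with a mean of at least 10, 2-sided, with Benjamini-Hochberg adjustment over all of them. edgeR 4.0.16 and DESeq2 1.42.0 were run on the recovered reads. Genes were named where the unadjusted p was under 0.05 with all libraries or without control replicate 2, where the groups did not overlap and the absolute log2 difference was at least 0.5, or where a gene had 1 of the 2 highest means of its role, plus the 2 smallest p of each pathway list. Genes outside this rule (Wnt4, Wnt5a, Wnt5b, Wnt9a, Wnt2b, Wnt6, Wnt16, Fzd1 to Fzd3, Fzd5 to Fzd9, Sfrp5, Rspo1, Rspo3, Lrp6, Dkk2, Dkk3, Dvl2, Dvl3, Gsk3b, Axin1, Tcf7, Tcf7l2 and the cell markers) were added after their values were seen. The members and lists were chosen with earlier results of these data known. Transcript length, GC content (96% of genes tested) and positions came from GENCODE M21, by symbol. For GC correction, a loess fit (span 0.3) of the deviation of a library against GC percent was subtracted. Alternatives are given at the end. The limma fit was also run on simulated counts, with a spread estimated without control replicate 2. That run therefore does not show how the fit behaves with this library included.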

Additional observations from a re-analysis of the deposited data

How the results depend on the processing

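With 2 Tbx1cko libraries the power to call a difference was low. With all 5 libraries limma did not call even Tbx1, at a log2 difference of -1.89 (limma adjusted p = 0.762). A member that was not called may therefore still differ, also by a large amount. Of 391 log2 differences of the 22 named members under the 18 alternatives, 363 kept their direction, 1 (Dvl1, GC correction without control replicate 2) was 0.00, and 27, in 11 members, changed sign. DESeq2 without control replicate 2 gave no adjusted p for 13 of the 391; the other 378 did not pass. The count of genes called was 0 with all 5 libraries (53 higher and 197 lower at an unadjusted p under 0.05, and 0 with edgeR), 4 with DESeq2, 0 to 3 when leaving out 1 library, and without control replicate 2 it was 78 with DESeq2 and 1 with edgeR. With the replicate block it was 3, with a median of -0.45 for the members; same-numbered libraries correlated at -0.0556 and -0.0461 in their deviations, so the numbers are not shown to pair the libraries. The median of the members was -0.45 to -0.12 when leaving out 1 library, -0.19 with GC correction, and, without control replicate 2, -0.15 with GC correction and -0.18 with DESeq2 or edgeR. Chosen after seeing the data, the count of members higher without overlap was 4 without control replicate 2.

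Signs changed as follows, and the cause was not tested. GC correction gave -0.23 for Apc, -0.07 for Ryk and 0.01 for Znrf3. GC correction without control replicate 2 gave -0.05 for Apc, Lgr4 and Wls, 0.02 for Porcn, -0.03 for Ryk, -0.15 for Sfrp1 and 0.01 for Tcf7l1. Without that library DESeq2 gave -0.02 for Lgr4 and Ryk and -0.14 for Sfrp1, and edgeR -0.03, -0.02 and -0.14. Quantile normalisation gave 0.09 for Ctnnb1 and -0.01 for Ryk. Leaving out 1 library gave ranges of -0.01 to 0.59 for Lgr4, -0.39 to 0.13 for Ror1, -0.01 to 0.16 for Ryk, -0.16 to 0.88 for Sfrp1, -1.30 to 0.13 for Sfrp2 and -0.30 to 0.27 for Znrf3. Leaving out 1 Tbx1cko library assumes that the lone one varies like the controls.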
